A study of Homo sapiens with 6 samples.

Results

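The genes examined were the 10 core genes of the p38 and JNK MAP kinase cascade, 4 MAP kinase kinases (MAP2K3, MAP2K6, MAP2K4 and MAP2K7), 4 p38 kinases (MAPK14, MAPK11, MAPK12 and MAPK13) and 2 JNK kinases (MAPK8 and MAPK9), chosen by name out of 24526 genes in the count table. WM266.4, an established human melanoma cell line, was transfected transiently with a negative control siRNA (neg.si, 3 libraries) or with 1 siRNA specific for RIPK4 (RIPK4.si, 3 libraries), and RNA was taken 48 h later. The labels name no further treatment, and each condition rests on a single siRNA in a single line. The comparison asks which transcripts of this cascade differ when the kinase RIPK4 is silenced. The replicates are described as separate experiments, so p-values measure the spread between 3 cultures of 1 line.

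Stress signals and inflammatory cytokines such as TNF-α reach p38 and JNK through kinases that phosphorylate one another in tiers. MAP3 kinases phosphorylate the MAP2 kinases, and these phosphorylate a threonine and a tyrosine in the activation loop of p38 or JNK, which switches the kinase on. MAP2K3 (MKK3) and MAP2K6 (MKK6) act on p38, MAP2K7 (MKK7) acts on JNK, and MAP2K4 (MKK4) acts mainly on JNK and can also act on p38. The active kinases phosphorylate transcription factors and kinases that stabilise cytokine transcripts, among them that of IL-8. Signalling through the cascade is set by phosphorylation, which RNA-seq does not measure.

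The place where the MAP2 kinases act is shown for the 6 terminal kinases because it separates the p38 group from the JNK group. Each line below gives 30 bases of the coding strand, 5′ to 3′, read from GRCh38 through the GENCODE 44 coding sequence, with the 3 codons of the phosphorylated threonine, the residue between and the phosphorylated tyrosine in capitals.
MAPK14 (p38α, chr6:36075881-36075910, plus strand): gatgaaatgACAGGCTACgtggccactagg
MAPK11 (p38β, chr22:50266986-50267015, minus strand): gaggagatgACCGGCTATgtggccacgcgc
MAPK12 (p38γ, chr22:50256137-50256166, minus strand): agtgagatgACTGGGTACgtggtgacccgg
MAPK13 (p38δ, chr6:36136689-36136718, plus strand): gccgagatgACTGGCTACgtggtgacccgc
MAPK8 (JNK1, chr10:48420242-48420271, plus strand): tttatgatgACGCCTTATgtagtgactcgc
MAPK9 (JNK2, chr5:180249022-180249051, minus strand): ttcatgatgACCCCTTACgtggtgacacgg
The middle codon is read as glycine in the 4 p38 genes and as proline in both JNK genes, so the same tier of the cascade is marked by a different residue in each group.

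Each library held between 28464057 and 31688095 read pairs counted on genes. The targeted gene fell: RIPK4 had 2656, 2298 and 1739 counts in neg.si against 585, 482 and 670 in RIPK4.si (here and below in the order of replicates 1, 2 and 3), a log2 fold change of -1.90 (edgeR quasi-likelihood adjusted p = 0.0102). Leaving out 1 library took its adjusted p over the threshold in 4 of 6 cases, to 0.106 (neg.si replicate 2) and to 0.094, 0.0622 and 0.0725 (RIPK4.si replicates 1, 2 and 3). All 9 melanocyte and melanoma markers had counts, MIA the least, at 0.277 to 1.20 CPM (counts scaled to the normalised library size). Their summed level was 3575 to 4013 CPM in neg.si and 2635 to 2760 CPM in RIPK4.si. That sum was lower in every RIPK4.si library, with 4 of the 9 markers (PMEL, TYR, DCT and MIA) not overlapping between groups, beside 17.6% of all genes tested, and PMEL the only one of the 9 with an adjusted p under 0.05 (0.0111). The part of this difference in the results below was not tested. KRT5 and KRT14, which define keratinocytes, stood at 0 to 0.614 and 0 to 0.170 CPM, and PTPRC, which defines leukocytes, at 0.0682 to 0.450 CPM. CD14, of the leukocyte list, stood at 0.832 to 2.23 CPM. ITGAM, of the same list, stood at 3.93 to 6.13 CPM in neg.si and 1.87 to 3.02 CPM in RIPK4.si. The summed levels of the keratinocyte (10.6 to 12 and 12.3 to 16.3 CPM, nearly all KRT10), leukocyte (5.54 to 8.07 and 3.46 to 4.74 CPM) and endothelial lists (2.53 to 2.93 and 3.10 to 3.25 CPM, neg.si and RIPK4.si in turn) were low in both groups but did not overlap between them, and their part was not tested either. Gene by gene, KRT10 and ITGAM did not overlap between groups, while the other 4 keratinocyte, 4 leukocyte and 3 endothelial genes did. On the first principal component neg.si replicate 3 lay farthest from the other libraries, and the values that rest on it are given below.

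All 10 cascade genes passed the filter on low counts, and 0 of the 10 had an adjusted p under 0.05 in edgeR's quasi-likelihood test, against 0.767% of the 16297 genes tested (61 rose and 64 fell). That background of 125 genes depends on single libraries, being 70, 0 and 295 genes without neg.si replicate 1, 2 or 3 and 0, 4 and 0 without RIPK4.si replicate 1, 2 or 3. At an unadjusted p under 0.05 edgeR gave 1153, 1426 and 1086 genes in the 3 settings with 0. In DESeq2 1 of the 10 passed, MAP2K6, against 2.91% of the genes with an adjusted p. At an unadjusted p under 0.05 there was again 1 of 10 in edgeR, MAP2K6, a share near the 10.8% of all genes tested. Groups without any overlap of their libraries were found for 2 of the 10, MAP2K6 and MAPK14, both lower in RIPK4.si, which is near the 17.6% of all genes tested. The median log2 fold change, RIPK4.si over neg.si, was -0.08 for the 10 genes and -0.02 for all genes, and the median size of that change was 0.148 against 0.192. In bulk RNA, fewer cells with a transcript and less of it per cell cannot be told apart.

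**Figure D1:**
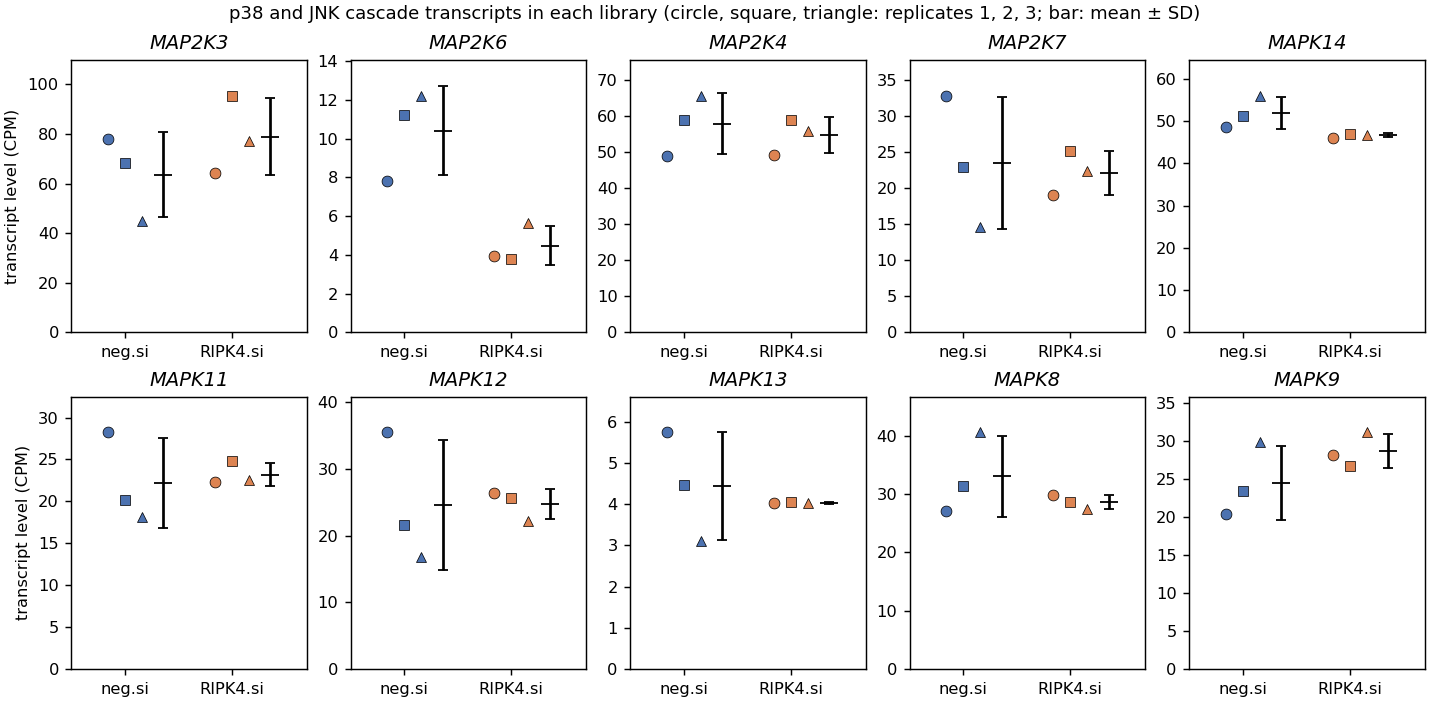
Transcript level in CPM of the 10 cascade genes in each library, with neg.si in blue, RIPK4.si in orange, and the mean ± SD of 3 libraries as a bar beside the points. The 3 RIPK4.si libraries lie under the 3 neg.si libraries for MAP2K6 (3.81 to 5.63 against 7.81 to 12.2 CPM) and, by a small margin, for MAPK14, while the other 8 genes overlap.

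The activators of p38 had estimates of opposite sign, MAP2K6 lower and MAP2K3 higher in RIPK4.si, and MAP2K6 passed the test in DESeq2 but not in the edgeR fit. MAP2K6 had 242, 336 and 388 counts in neg.si against 116, 110 and 175 counts in RIPK4.si. The highest RIPK4.si library therefore stood under the lowest neg.si library, both before scaling and in CPM. As a level this was 10.4 ± 2.30 CPM in neg.si and 4.46 ± 1.01 CPM in RIPK4.si (SD, n = 3 each), 42.9% of the control. The log2 fold change was -1.22 (standard error 0.244), with a 95% interval of the fold from 0.294 to 0.628. With edgeR and Benjamini-Hochberg adjustment the adjusted p was 0.0651, the gene being number 164 of 16297 by p. With DESeq2 it was 0.000674. Over 13 alternative settings the adjusted p ran from 0.000674 to 0.331, while its log2 fold change ranged from -1.41 to -1.08. It was under 0.05 in 5 of them, DESeq2, the GC trend removed, the replicate block, and edgeR without neg.si replicate 1 (0.0427) or 3 (0.0468). An exact permutation test, two-sided, gave p = 0.1, the smallest value that 3 libraries against 3 allow.

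MAP2K3, the paralogue that also activates p38, stood at 77.8, 68.3 and 44.8 CPM in neg.si. In RIPK4.si it stood at 64.3, 95.5 and 77.2 CPM. These groups overlapped, since RIPK4.si replicate 1 was under 2 of the neg.si libraries. The log2 fold change was 0.31 (standard error 0.229, edgeR adjusted p = 0.747), and the interval of the log2 fold change, -0.20 to 0.83, does not reach the value of MAP2K6.

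Set against each other within a library, which removes any scaling, the counts of MAP2K6 were 0.10, 0.164 and 0.272 of those of MAP2K3 in neg.si. In RIPK4.si they were 0.0615, 0.0399 and 0.0729. No RIPK4.si library reached the lowest neg.si ratio. The log2 ratio differed by -1.55, a fold of 0.342 (two-sided exact permutation test, p = 0.1, and 0.15 after Benjamini-Hochberg adjustment over the 3 ratios and shares tested). The difference was -1.49 after the trend on GC content was removed from each library, again with no overlap. The ratio spread widely within neg.si, and without replicate 1 or 3 of that group the difference was -1.91 or -1.19.

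The activators of JNK gave no such separation. MAP2K4 had 1515, 1771 and 2088 counts in neg.si against 1446, 1702 and 1743 in RIPK4.si. Its level was 57.9 ± 8.46 CPM in neg.si and 54.7 ± 4.95 CPM in RIPK4.si (SD, n = 3 each), with a log2 fold change of -0.08 (standard error 0.163, edgeR adjusted p = 0.944). The processed pseudogene MAP2K4P1 is 95% identical to it over 1894 bases, so some reads could fit both. MAP2K7, the kinase dedicated to JNK, ran from 14.6 to 32.8 CPM in neg.si, a range that held all 3 RIPK4.si libraries (18.9, 25.1 and 22.3 CPM). Its log2 fold change was -0.08 (standard error 0.271, edgeR adjusted p = 0.970) and the interval, -0.69 to 0.53, leaves a wide range of sizes possible. A lncRNA on the opposite strand overlaps 8.51% of the MAP2K7 exon bases, and reads there could not be told apart by strand.

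Among the p38 kinases MAPK14, the p38 isoform found in most tissues, had 48.7, 51.2 and 56.1 CPM in neg.si against 46.1, 47.0 and 46.8 CPM in RIPK4.si. The groups did not overlap, but the nearest libraries were 47.0 and 48.7 CPM. The log2 fold change was -0.16 (standard error 0.139, edgeR adjusted p = 0.812), with an exact permutation p of 0.1. MAPK11 stood at 28.3, 20.1 and 18.1 CPM in neg.si against 22.3, 24.8 and 22.5 CPM in RIPK4.si. All 3 RIPK4.si libraries thus lay inside the neg.si range, and the log2 fold change was 0.07 (standard error 0.195, edgeR adjusted p = 0.965).

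MAPK12, the isoform best known from muscle, stood at 35.5, 21.5 and 16.7 CPM in neg.si against 26.4, 25.6 and 22.2 CPM in RIPK4.si. The means were almost equal, 24.6 ± 9.75 and 24.7 ± 2.26 CPM (SD, n = 3 each, edgeR adjusted p = 0.997). Its exons share 2763 bases, 29.7% of their length, with HDAC10 on the same strand, where read pairs of these genes cannot be told apart. A lncRNA on the opposite strand overlaps 554 of its exon bases (5.95%), which counting without strand cannot separate either. How pairs in these shared bases were assigned is not stated, and the per-length values below divide by all exon bases of MAPK12, shared ones included. HDAC10 itself stood at 19.1 ± 4.19 CPM in neg.si and 21.0 ± 0.388 CPM in RIPK4.si (SD, n = 3 each, edgeR adjusted p = 0.913). MAPK13, an isoform of epithelia, had the fewest counts of the 10 members, 771 in all, with 178, 134 and 99 counts in neg.si against 118, 117 and 125 in RIPK4.si. In CPM the RIPK4.si libraries were nearly the same, 4.03 ± 0.0171 (SD, n = 3), and sat inside the neg.si range of 3.12 to 5.75 (log2 fold change -0.14, standard error 0.247, edgeR adjusted p = 0.930).

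The p38 genes are arranged in pairs on the genome. On the minus strand of GRCh38, 1996 bases separate the end of MAPK11 (chr22:50263713-50270767) from the start of MAPK12 (chr22:50245450-50261716). On the plus strand, 16572 bases separate the end of MAPK14 (chr6:36027677-36111236) from the start of MAPK13 (chr6:36127809-36144524). Neither pair held a gene with an adjusted p under 0.05. The remaining members are MAP2K3 (chr17:21284672-21315232), MAP2K4 (chr17:12020829-12143830), MAP2K6 (chr17:69414697-69553865), MAP2K7 (chr19:7903843-7914478) and MAPK8 (chr10:48306639-48439360) on the plus strand and MAPK9 (chr5:180233143-180292099) on the minus strand.

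The JNK genes had opposite signs. MAPK8 had 839, 940 and 1289 counts in neg.si against 874, 829 and 850 in RIPK4.si, with a log2 fold change of -0.21 (standard error 0.181, edgeR adjusted p = 0.810). MAPK9 had 629, 701 and 947 counts in neg.si against 826, 771 and 968 in RIPK4.si, with a log2 fold change of 0.23 (standard error 0.182, edgeR adjusted p = 0.784). Neither gene alone separated the groups. MAPK10 (JNK3), the isoform of neurons, had 3 to 6 counts in each library and 30 in all, too few to test.

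Their balance within a library was steadier than either level in neg.si, though not in RIPK4.si. Counted per length of exon, MAPK9 made up 44.7%, 44.6% and 44.2% of the JNK transcripts in neg.si. In RIPK4.si it made up 50.5%, 50.1% and 55.2%. The groups did not overlap, and MAPK9 was the smaller share in each neg.si library and the larger in each RIPK4.si library. The mean share was 44.5 ± 0.259% in neg.si and 51.9 ± 2.80% in RIPK4.si (SD, n = 3 each), a difference of 7.39 percentage points (exact permutation test, two-sided, p = 0.1, which is the floor, and 0.15 adjusted over the 3 ratios and shares). With any 1 library left out it lay between 5.78 and 8.30 points. The log2 ratio of MAPK9 to MAPK8 differed by 0.43 between groups and by 0.44 with the GC trend removed, again with no overlap. With the longest annotated transcript as length the mean share was 48.4% in neg.si and 55.7% in RIPK4.si, and MAPK9 was again the smaller share in each neg.si library and the larger in each RIPK4.si library. Which gene is the larger depends on the length. Without it, counts of MAPK9 over MAPK8 were 0.750, 0.746 and 0.735 in neg.si and 0.945, 0.930 and 1.14 in RIPK4.si. By counts MAPK9 thus exceeded MAPK8 only in RIPK4.si replicate 3. The ratio does not say which of the genes differed.

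**Figure D2:**
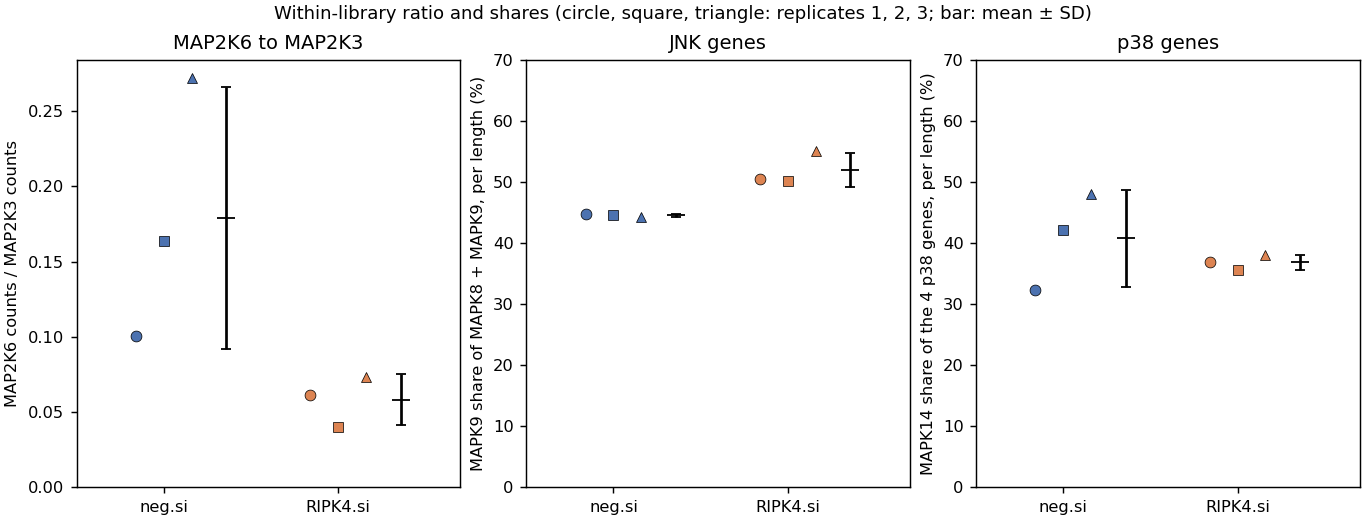
Counts of MAP2K6 relative to MAP2K3 (left), the MAPK9 share of MAPK8 plus MAPK9 (middle) and the MAPK14 share of the 4 p38 genes (right) in each library, shares being per exon length in percent, with the mean ± SD of 3 libraries as a bar. The ratio is 0.10 to 0.272 in neg.si and 0.0399 to 0.0729 in RIPK4.si, the MAPK9 share is 44.2 to 44.7% and 50.1 to 55.2%, both without overlap, and the MAPK14 share overlaps.

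The make-up of the p38 group overlapped between conditions. MAPK14 made up 40.8 ± 7.97% (SD, n = 3) of the p38 transcripts per length in neg.si and 36.8 ± 1.17% (SD, n = 3) in RIPK4.si (two-sided exact permutation test, p = 0.5). The difference of -3.96 percentage points rested on single neg.si libraries, being -8.24 without replicate 1, where the groups did not overlap, and -0.35 without replicate 3. MAPK11 made up 42.5 ± 4.10% and 46.0 ± 1.31% (SD, n = 3 each), so α and β together were most of the p38 RNA in both groups. The 4 p38 genes summed to 19.2 ± 2.73 CPM per kilobase of exon in neg.si and 18.8 ± 0.661 in RIPK4.si (SD, n = 3 each). The JNK genes summed to 6.14 ± 1.26 and 6.16 ± 0.186 on the same scale, and the 4 MAP2 kinases to 32.2 ± 4.68 and 35.1 ± 5.57 (SD, n = 3 each). All 3 sums overlapped between groups. MAP2K6 was a small part of the MAP2 kinase RNA, 2.01 ± 0.709% in neg.si and 0.777 ± 0.204% in RIPK4.si (SD, n = 3 each), beside 51.7% and 59.4% for MAP2K3.

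Ordered by level per kilobase of exon in neg.si, MAP2K3 came first at 16.9 ± 4.50 CPM per kilobase, followed by MAP2K4 at 10.1 ± 1.48 (SD, n = 3 each). MAPK11 (8.25), MAPK14 (7.70), MAP2K7 (4.55), MAPK8 (3.41), MAPK9 (2.73) and MAPK12 (2.64) came next as means in CPM per kilobase. MAPK13 and MAP2K6 were last at 0.632 ± 0.187 and 0.625 ± 0.138 CPM per kilobase (SD, n = 3 each). The neg.si ranges of neighbours were apart in 3 steps of this order, MAP2K3 over MAP2K4, MAPK14 over MAP2K7, and MAPK12 over MAPK13 with a ratio of 4.18. The ranges of the other neighbours overlapped, although MAPK8 stood above MAPK9 within each of the 3 neg.si libraries. The exon models affect the scale. With the longest transcript as length MAPK14 stood above MAPK11 (12.3 against 9.17 CPM per kilobase) and MAP2K6 above MAPK13 (0.776 against 0.703). In RIPK4.si the order per kilobase of exon was the same except that MAPK9 (3.20) stood above MAPK8 (2.96). MAP2K6, last in both groups on that scale, was at 0.268 ± 0.0607 CPM per kilobase (SD, n = 3). By longest transcript MAP2K6 was last only in RIPK4.si, at 0.333 against 0.638 CPM per kilobase for MAPK13.

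**Figure D3:**
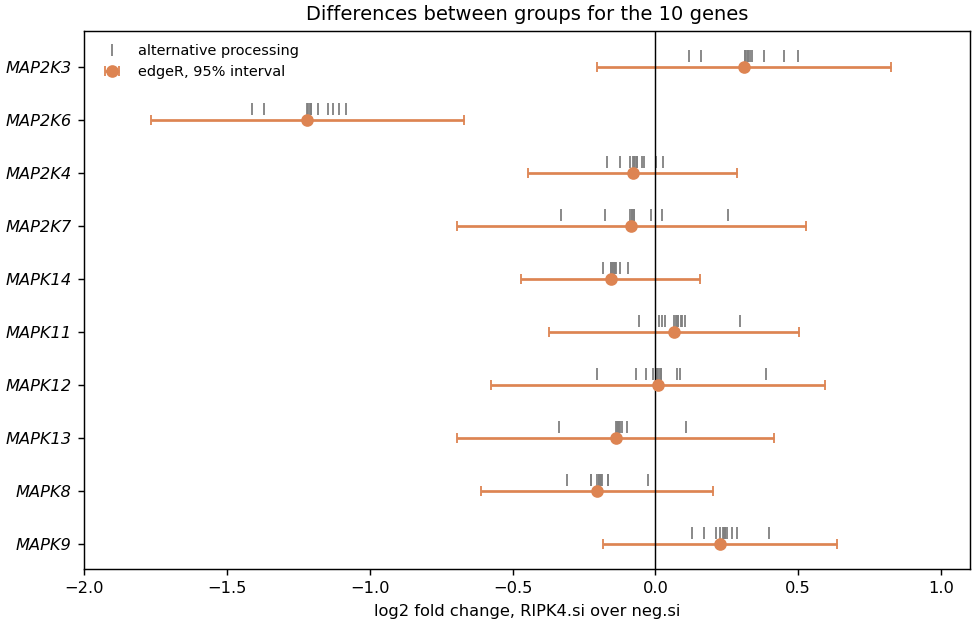
Log2 fold change, RIPK4.si over neg.si, of the 10 genes from edgeR (circles, with 95% intervals) and from 13 alternative settings (grey ticks). MAP2K6 is the only one of the 10 whose interval (-1.77 to -0.67) leaves out 0, and the ticks of MAP2K4, MAP2K7, MAPK11, MAPK12 and MAPK13 fall on both sides of 0.

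For the 9 genes other than MAP2K6 the 95% intervals of the fold lay between 0.617 and 1.77. Over the 13 alternative settings, 117 fits of these 9 genes in all, 0 had an adjusted p under 0.05 and the smallest was 0.286. The sign held in every setting for MAP2K3, MAPK8, MAPK9 and MAPK14 and turned in at least 1 for MAP2K4, MAP2K7, MAPK11, MAPK12 and MAPK13.

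The 10 genes differed between neg.si replicates 1 and 3 along the GC content of their exons. The 5 genes with the lowest GC content, MAPK8 (37.6%), MAP2K6 (38.6%), MAP2K4 (40.4%), MAPK9 (41.6%) and MAPK14 (43.5%), were all lower in neg.si replicate 1 than in replicate 3. Their CPM ratios between these libraries ran from 0.640 for MAP2K6 to 0.868 for MAPK14. The 5 with the highest, MAPK13 (53.0%), MAP2K3 (59.1%), MAP2K7 (62.4%), MAPK11 (62.9%) and MAPK12 (65.7%), were all higher in neg.si replicate 1, from 1.56 for MAPK11 to 2.24 for MAP2K7. Across the 10 genes the Spearman rho of a gene's deviation with its GC content was 0.709 in neg.si replicate 1 and -0.83 in replicate 3. Over 16239 genes the rho was 0.562 and -0.554 in those libraries, the same signs. In neg.si replicate 2 the rho was -0.442 across the 10 genes and 0.0805 over all genes. In RIPK4.si it was 0.345, 0.758 and 0.358 across the 10 genes and -0.0579, 0.173 and -0.0834 over all genes, so the signs differed in 3 of the 6 libraries. These correlations are across genes, which share a library and are not replicates, and are given as descriptions.

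With that trend removed, the standard deviation of log2 CPM over the neg.si libraries dropped from 0.295 to 0.0172 for MAPK8 and from 0.339 to 0.147 for MAP2K6. For MAPK13 it went from 0.437 to 0.316, a smaller drop. The difference between groups for MAP2K6 was nearly as large, a log2 fold change of -1.18, and its adjusted p in edgeR was then 0.0119. For MAPK9 the log2 fold change was 0.27 under the same setting, with an edgeR adjusted p of 0.286. The spread was wider in neg.si than in RIPK4.si for 10 of the 10 genes, against 64.3% of all genes tested, and the median ratio of the highest to the lowest library was 1.56 in neg.si and 1.18 in RIPK4.si. Over all genes tested these medians were 1.5 and 1.33.

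**Figure D4:**
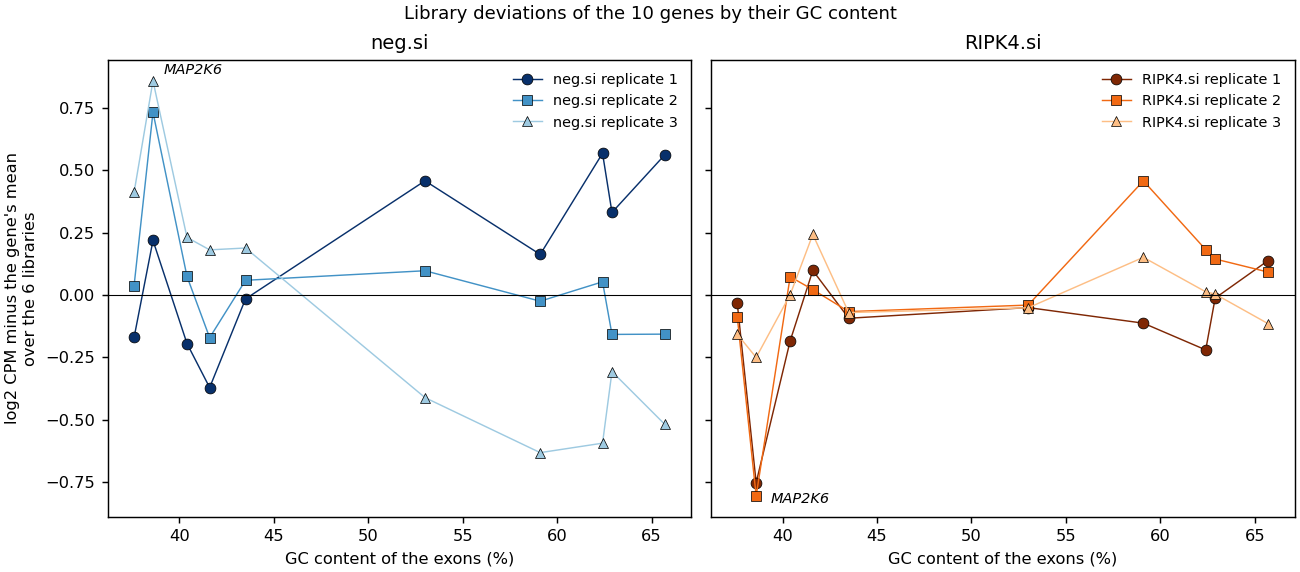
Deviation of each library's log2 CPM from the gene's mean over 6 libraries (vertical axis), against the GC content of the gene's exons in percent, for the 10 genes in the neg.si (left) and RIPK4.si (right) libraries, with lines joining the points of a library. In neg.si the lines of replicates 1 and 3 cross between the 5 genes of lowest and the 5 of highest GC content, and MAP2K6 at 38.6% is the gene that departs from its neighbours in both panels.

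The genes most like MAP2K6 across the 6 libraries, by Pearson's r of log2 CPM, were HIPK1 (0.998), FBXL7 (0.995) and C1QTNF3 (0.994). At the looser cut of an r over 0.95 there were 102 of 16296 genes (0.626%). How often values this high arise with 6 libraries was not tested. The log2 fold changes of HIPK1, FBXL7 and C1QTNF3 were -0.65, -0.46 and -1.28, with edgeR adjusted p-values of 0.131, 0.281 and 0.183.

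The 3′ UTR of MAP2K6 is 12115 bases long, against 503 to 5326 bases in the other 9 genes. A word of 7 bases, ACAGCTT, came from earlier work on these same data, where it was chosen for its relation to lower levels, so its presence here is no independent evidence. It was searched on the sense strand of the longest annotated 3′ UTR and found once in each of 2 members, shown for comparison with the word in capitals.
MAP2K6 (chr17:69545656-69545685, GRCh38, plus strand, 3′ UTR): attaggtcccaACAGCTTaataatagcagt
MAP2K7 (chr19:7913274-7913303, GRCh38, plus strand, 3′ UTR): ctccgggggccACAGCTTggggtgagttga
The share of members with the word, 20%, was close to the 18.4% of the 3′ UTRs of 12990 tested protein-coding genes. Among 208 genes with a 3′ UTR within 25% of the length of that of MAP2K6 it was 64.4%, and among 2762 genes within 25% of that of MAP2K7 it was 16.3%. Whether the word bears on the level of either gene was not tested.

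Around the 10 genes, 92 further genes of the pathway were listed by role, of which 85 could be tested, and 1 of the 85 had an adjusted p under 0.05 in edgeR, beside 0.767% of all genes tested. At an unadjusted p under 0.05 there were 7 (6 lower and 1 higher in RIPK4.si), beside 10.8% of all genes, and the median log2 fold change was -0.06. DESeq2 called 3, ELK1, DUSP10 and PTGS2, beside 2.91% of all genes with an adjusted p. The single genes below were named for a small p or after their values were seen. Groups without overlap were found for 17.6% of all genes tested, so a separation alone sets none of them apart. Upstream of the members, 0 of 16 tested MAP3 kinases passed in edgeR or in DESeq2, and 0 had an unadjusted p under 0.05, with log2 fold changes from -0.34 to 0.33 and a median of -0.17. MAP3K4, which can phosphorylate MAP2K6, stood at 30.2 ± 1.09 CPM in neg.si and 24.5 ± 0.899 CPM in RIPK4.si (SD, n = 3 each, edgeR adjusted p = 0.504). MAP3K6 stood at 16.6 ± 2.58 and 20.9 ± 0.543 CPM (SD, n = 3 each, edgeR adjusted p = 0.546). Of the partners of MAP3 kinases 0 of 7 passed in either tool, and the lowest p-values belonged to GADD45A (log2 fold change -0.25, edgeR adjusted p = 0.741) and TAB2 (0.15, edgeR adjusted p = 0.895).

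Among the scaffolds that hold the tiers together, 0 of 6 passed in edgeR or DESeq2. MAPK8IP1 (JIP1), the scaffold of the JNK module, had 477, 359 and 260 counts in neg.si against 144, 236 and 155 in RIPK4.si. In CPM its lowest neg.si library (8.18) was just above its highest RIPK4.si library (8.17). The log2 fold change was -0.98 (standard error 0.288, edgeR adjusted p = 0.202), and the adjusted p was 0.0386 without neg.si replicate 3, 0.0235 with the GC trend removed and up to 0.718 in the other alternatives. SPAG9 (JIP4) had a log2 fold change of -0.37 (edgeR adjusted p = 0.576). Of the other MAP2 kinases and MAP kinases 0 of 8 passed in either tool, with MAPK7 (ERK5) at 0.47 and NLK at -0.35 on the log2 scale (edgeR adjusted p = 0.476 and 0.637).

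Downstream of p38, 0 of 7 kinases passed in either tool. MAPKAPK5, a kinase activated by p38, was steady within groups, at 24.7, 24.0 and 25.1 CPM in neg.si against 17.9, 16.5 and 17.2 CPM in RIPK4.si. The groups did not overlap, beside 17.6% of all genes tested. The log2 fold change of -0.52 (standard error 0.146) had an edgeR adjusted p of 0.180 and a DESeq2 adjusted p of 0.0968. MKNK2 (MNK2) had a log2 fold change of -0.38 (edgeR adjusted p = 0.606).

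Of the 10 tested phosphatases that switch p38 and JNK off, 0 passed in edgeR and 1 in DESeq2. DUSP10, which removes both phosphates from p38 and JNK, had 82.1, 72.6 and 76.1 CPM in neg.si against 51.3, 43.5 and 51.6 CPM in RIPK4.si. These groups did not overlap, beside 17.6% of all genes tested. The log2 fold change was -0.66 (standard error 0.146), with an adjusted p of 0.0902 in edgeR, 0.0325 in edgeR with the GC trend removed and 0.0116 in DESeq2, and up to 0.445 with a library left out. DUSP1, an early-response phosphatase of the same family, was lower in abundance and had the other sign, 3.33 ± 0.676 CPM in neg.si and 4.75 ± 0.845 CPM in RIPK4.si (SD, n = 3 each, edgeR adjusted p = 0.496).

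Among 16 transcription factors that p38 or JNK phosphorylate, ELK1 fell and 0 rose. ELK1, which binds serum response elements with SRF, stood at 62.8, 54.2 and 38.2 CPM in neg.si against 17.3, 21.2 and 17.8 CPM in RIPK4.si. The log2 fold change was -1.46 (standard error 0.208, edgeR adjusted p = 0.0292, range over the alternatives 4.77e-07 to 0.214). The adjusted p was over 0.05 in 4 of 6 cases of 1 library left out, namely neg.si replicate 2 (0.191) and RIPK4.si replicates 1 (0.148), 2 (0.104) and 3 (0.214). MEF2C, a substrate of p38, had a log2 fold change of 0.21 (edgeR adjusted p = 0.734).

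Of 15 tested transcripts with AU-rich elements and their binding proteins, the group through which p38 signalling acts on RNA stability, 0 passed in edgeR and 1 in DESeq2. PTGS2 (cyclooxygenase-2) had 5.23, 6.66 and 8.31 CPM in neg.si against 13, 13.3 and 14.5 CPM in RIPK4.si. It was higher in every RIPK4.si library, and the log2 fold change was 1.01 (standard error 0.205), with an adjusted p of 0.0690 in edgeR and 0.000834 in DESeq2. In edgeR it was 0.0137 without neg.si replicate 3 and 0.00578 with the GC trend removed, but 0.334 without neg.si replicate 2 and 0.235, 0.182 and 0.373 without RIPK4.si replicates 1, 2 and 3. The chemokine CXCL2 stood at 3.16 ± 0.383 CPM in neg.si and 2.13 ± 0.0327 CPM in RIPK4.si (SD, n = 3 each, edgeR adjusted p = 0.353). CXCL3, named after its values were seen as the remaining gene of this list with an unadjusted p under 0.05, had 29, 23 and 28 counts in neg.si against 5, 17 and 14 in RIPK4.si (edgeR adjusted p = 0.398). CXCL8, which encodes IL-8 and was also named after its values were seen, had 397, 412 and 378 CPM in neg.si against 437, 632 and 472 CPM in RIPK4.si. Its RIPK4.si libraries were all above its neg.si libraries, with a log2 fold change of 0.38 (standard error 0.174, edgeR adjusted p = 0.487, DESeq2 adjusted p = 0.488).

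**Figure D5:**
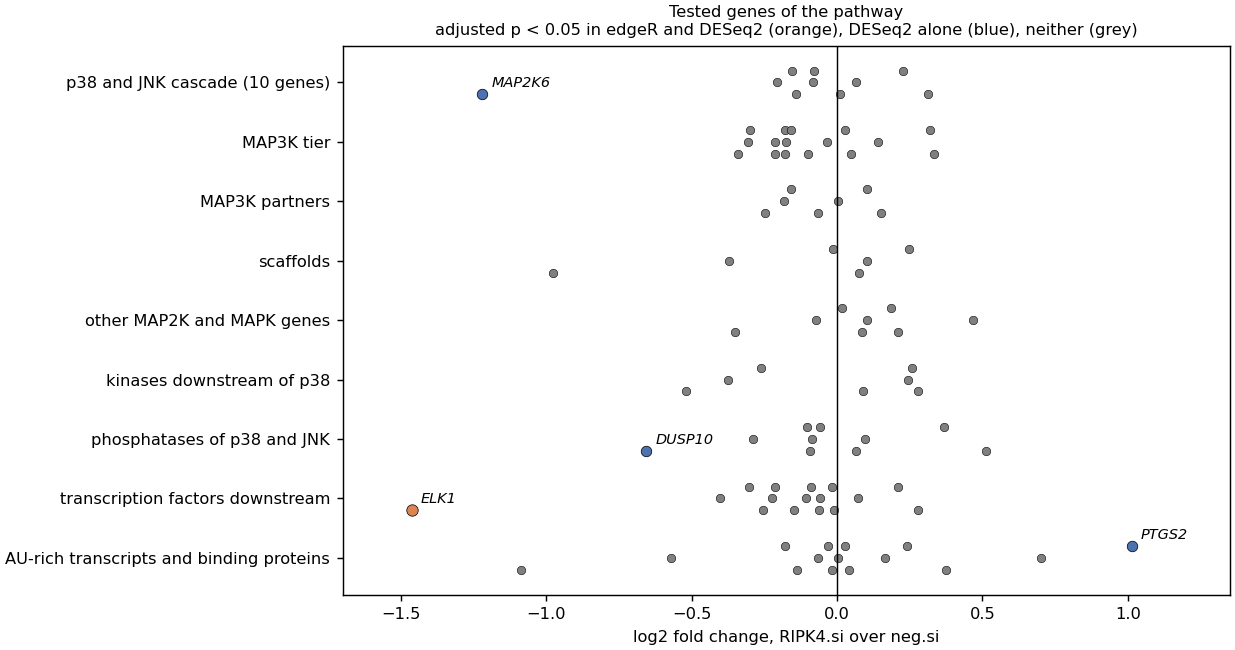
Log2 fold change, RIPK4.si over neg.si, of the 10 cascade genes (top) and of 85 tested genes in 8 lists of the pathway, with colour marking an adjusted p under 0.05 in edgeR and DESeq2 (orange), in DESeq2 alone (blue) or in neither (grey). ELK1 is the only orange point, MAP2K6, DUSP10 and PTGS2 are blue, and the MAP3 kinases lie between -0.34 and 0.33.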

How the data were processed

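RNA-seq of 6 libraries was analysed. The authors prepared poly(A) libraries, trimmed paired reads with Cutadapt, aligned them to GRCh38 with TopHat and counted pairs per gene with HTSeq regardless of strand. The deposited counts are whole read pairs without normalization, and genes under a total of 6 are not listed. The deposited signal values, counts divided by DESeq2 size factors, and the fold (ratio), log2 fold change, standard error (a score) and p-value columns of the authors' own comparison were not used.

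Counts were tested with edgeR 4.0.16 in R 4.3.3 (quasi-likelihood test, TMM, filterByExpr, Benjamini-Hochberg adjustment over 16297 genes). A check of the code on simulated counts used a common dispersion and no GC trend, so it does not cover the spread of these libraries. A gene is called at an adjusted p under 0.05. Alternatives were DESeq2 1.42.0, upper-quartile or DESeq2 scaling in edgeR, 2 other filters, a replicate block, a per-library GC trend removed (lowess, span 0.3) and each library left out. log2 CPM used a prior count of 2. Exon lengths, GC content and sequences came from GENCODE 44, which held 24416 of the gene identifiers. The members and lists were chosen with earlier results of these data known. Named genes were the members, RIPK4, MAPK10, the called genes and the 2 with the smallest p of each list, the 3 most like MAP2K6, genes overlapping members, and markers. CXCL3 and CXCL8 fall outside this rule. Deviations from the group means had an r of -0.242, 0.251 and 0.346 between same-numbered libraries and of -0.498 to 0.413 between differently numbered ones. These values cannot settle whether the experiments were paired. The main fit did not take the numbers as pairs, and the replicate block is given as an alternative.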

Additional observations from a re-analysis of the deposited data

How the results depend on the processing

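The direction of MAP2K6 held in all 13 alternatives, but not its side of the threshold. Its adjusted p was 0.0651 in the edgeR fit, and under 0.05 with DESeq2 (log2 fold change -1.21, adjusted p = 0.000674), with the GC trend removed (-1.18, adjusted p = 0.0119), and without neg.si replicate 1 or 3 (adjusted p = 0.0427 and 0.0468). Fitting the replicate number as a block gave -1.22 (edgeR adjusted p = 0.0402), although the numbers were not taken as pairs (2 of 3 same-numbered pairs had a positive r). The number of members called was 0, and 1 in each of these 5 alternatives. With a library left out the log2 fold change ran from -1.41 to -1.08 for MAP2K6 and from -2.06 to -1.74 for RIPK4, and the members called from 0 to 1. Genes called in the pathway lists were 1, against 3 with DESeq2, 4 with the GC trend removed, and 0 to 3 with a library left out (3 without neg.si replicate 3). Over all genes the share called moved too, from 0.767% to 2.91%, 3.28% and 1.78% in those 3 settings. It was 0.0237% with RIPK4.si replicate 2 left out and 0% with neg.si replicate 2, RIPK4.si replicate 1 or RIPK4.si replicate 3 left out, the same 4 settings in which RIPK4 and ELK1 were not called. The cause was not tested. The share of MAPK9 and the ratio of MAP2K6 to MAP2K3 kept their direction in every alternative run. Beside these, MAPK8IP1 and PTGS2 were called with the GC trend removed and without neg.si replicate 3, and DUSP10 with the GC trend removed. Depth limits MAPK10, at 30 counts in all, and the small counts of MAPK13 and MAP2K6, where counting error adds to the spread.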
